A study of Mus musculus with 81 samples.

Results

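ETn (early transposon) and MusD elements are related families of mouse long terminal repeat (LTR) retrotransposons, and they were described here in the RNA and DNA methylation data of fetal testis cells. The elements were chosen by name: of the 970384 LTR loci in the 4 deposited RNA tables, 4592 had a RepeatMasker name that begins with ETnERV or RLTRETN. They comprised 891 ETnERV-int, 1794 ETnERV2-int and 558 ETnERV3-int loci, all pieces of internal regions, and 1349 RLTRETN_Mm loci, all LTRs. A further 979 loci named MMETn-int, the internal region of ETn elements, have another name and served for comparison only. The study exposed pregnant F0 dams of the transgenic OG2 line, in which EGFP marks prenatal germ cells under control of Pou5f1/Oct4 regulatory sequence, to 50 nM tributyltin (TBT, an organotin compound) or to 0.1% DMSO in drinking water. Testes of male fetuses at E18.5 were taken in the F1 generation, exposed through the dam, and in the F3 generation, bred without further exposure, and all groups carried the EGFP transgene. Cells were sorted into 2 EGFP-positive germline populations, P4 and P5, separated by side scatter, and into the EGFP-negative somatic population P6. The F1 RNA libraries were 5 DMSO and 7 TBT in P4, 4 and 7 in P5, and 5 and 7 in P6, the F3 RNA libraries were 4 DMSO and 5 TBT in each population, and methylated DNA was measured in P6 only, in 3 DMSO and 4 TBT libraries of F1 and 5 and 7 of F3.

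A complete element has an internal region between a pair of LTRs, and its upstream LTR holds the promoter from which it is transcribed. MusD elements carry reading frames for gag, protease and polymerase proteins but no envelope gene, whereas ETn elements lack these reading frames and are copied with the proteins of MusD. ETn insertions are a recurrent source of new mutations in laboratory mice, and the family is known to be held silent in most cells by DNA methylation and by histone H3 lysine 9 methylation.

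The LTR sequences below show loci on which the levels described further on turn, read from the reference strand of the element in GRCm38/mm10 from 5′ to 3′, with CpG dinucleotides, the sites of DNA methylation, in capitals. Each is the whole locus or its first 300 bases. The first pair lie in Dcaf13, a gene of ribosome biogenesis, and had the highest means of all members in F1 P4 and F1 P5.
RLTRETN_Mm in Dcaf13, chr15:39132126-39132425, - strand: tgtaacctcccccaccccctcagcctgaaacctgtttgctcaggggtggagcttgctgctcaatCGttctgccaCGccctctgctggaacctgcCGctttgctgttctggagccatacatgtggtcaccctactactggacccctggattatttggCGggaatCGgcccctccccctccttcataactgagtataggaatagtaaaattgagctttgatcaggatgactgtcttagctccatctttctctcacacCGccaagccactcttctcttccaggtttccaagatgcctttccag
RLTRETN_Mm in Dcaf13, second LTR, chr15:39136431-39136730, - strand: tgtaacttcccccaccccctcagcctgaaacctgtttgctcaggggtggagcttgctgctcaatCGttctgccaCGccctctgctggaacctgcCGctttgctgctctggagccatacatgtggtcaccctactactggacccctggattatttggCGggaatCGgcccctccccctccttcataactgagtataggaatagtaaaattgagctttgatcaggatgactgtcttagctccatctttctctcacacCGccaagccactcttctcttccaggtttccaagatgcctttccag
RLTRETN_Mm in Cpe, the highest RLTRETN_Mm locus of P6, chr8:64666443-64666742, + strand: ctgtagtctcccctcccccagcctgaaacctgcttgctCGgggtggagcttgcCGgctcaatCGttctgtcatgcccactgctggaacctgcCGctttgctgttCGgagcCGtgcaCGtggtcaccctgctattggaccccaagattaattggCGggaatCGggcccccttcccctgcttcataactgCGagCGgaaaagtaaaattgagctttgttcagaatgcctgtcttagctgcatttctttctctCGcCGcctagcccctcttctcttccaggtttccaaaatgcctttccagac
RLTRETN_Mm outside genes, among the highest such loci of P4 in both generations, chr6:132455187-132455393, + strand: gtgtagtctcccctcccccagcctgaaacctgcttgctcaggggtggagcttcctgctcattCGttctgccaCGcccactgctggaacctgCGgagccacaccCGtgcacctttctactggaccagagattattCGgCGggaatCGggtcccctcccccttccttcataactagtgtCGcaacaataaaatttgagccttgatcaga
RLTRETN_Mm outside genes, among the highest such loci of P4 in both generations, chr16:86217146-86217445, - strand: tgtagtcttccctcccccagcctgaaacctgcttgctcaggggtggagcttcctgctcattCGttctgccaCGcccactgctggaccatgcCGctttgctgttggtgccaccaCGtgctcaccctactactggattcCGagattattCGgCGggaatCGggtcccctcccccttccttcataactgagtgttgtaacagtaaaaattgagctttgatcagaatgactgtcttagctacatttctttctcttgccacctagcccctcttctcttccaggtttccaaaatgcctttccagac
ERVB7_1-LTR_MM beside an ETnERV-int locus that was higher in P5 than in P4, chosen after its values were seen, chr2:86067565-86067864, - strand: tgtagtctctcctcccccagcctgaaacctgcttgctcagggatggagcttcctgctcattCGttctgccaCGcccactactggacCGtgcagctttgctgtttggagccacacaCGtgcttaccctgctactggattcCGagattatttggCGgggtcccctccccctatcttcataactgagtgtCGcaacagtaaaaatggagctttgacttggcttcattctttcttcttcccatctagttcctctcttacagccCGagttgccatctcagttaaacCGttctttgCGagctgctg
Over their whole length the Dcaf13 pair were 97.95% identical, with 7 differing positions, while the Cpe LTR was 84.73% identical to the first of them. The E-box CACGTG, a palindrome and hence the same on both strands, was found in the Cpe, chromosome 16 and ERVB7 sequences and in neither Dcaf13 LTR. It was present in 858 of the 1177 RLTRETN_Mm loci of 310 to 350 bases (72.9%), at a median position of 107 from the start of the LTR. The same letters occurred in 823 of 1177 ERVB7 LTRs of that length (69.92%) and in 2980 of 98695 other LTR loci of that length (3.019%). A match of letters is a description and shows no binding.

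The members differed in structure by name. ETnERV-int loci had a median length of 272 bases and reached 6556 bases, and 114 of them were at least 4 kb long. Of these 114 long internal regions, 105 were joined to an ERVB7 LTR, another name of the MusD lineage, and 1 to RLTRETN_Mm. Only ETnERV-int held open reading frames of 600 codons or more, in 58 loci, with a maximum of 908 codons. ETnERV2-int (median 556.5 bases) and ETnERV3-int (median 1079 bases) mostly stood without an LTR of 150 bases or more, in 1619 of 1794 and 553 of 558 loci, and their longest stop-free frames were 344 and 591 codons. RLTRETN_Mm had a median length of 325 bases. It was joined to MMETn-int in 551 of 1349 loci, to an ETnERV internal region in 47 and to no internal region in 690, so most of the LTR loci stood without an internal region or were joined to that of ETn rather than MusD. The 176 RLTRETN_Mm pairs that bound 1 element were 97.8% identical in the median, and 1 pair was identical. CpG density was 2.48 per 100 bases in RLTRETN_Mm, 1.85 in ETnERV-int, 0.608 in ETnERV2-int and 0.655 in ETnERV3-int. Of all members, 112 overlapped an annotated exon, 803 lay in an intron and 3677 (80.1%) lay outside genes. Where a gene on 1 strand held an RLTRETN_Mm locus, the LTR had the gene's strand in 109 of 361 cases (30.2%). Chromosome X held the most members, 526 of 4592 (11.5%).

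Values are CPM, read counts at LTR loci that the authors scaled to the library size. The RNA libraries held 246520 to 8161548 such reads, and the members took 1932 to 26954 of them. Reads at LTR loci outside genes made up a median of 2.19% in F1 P4, 5.29% in F1 P5, 1.5% in F1 P6, and of 3.22%, 11.2% and 1.34% in the same order in F3. In 7 libraries this share stood apart: TBT 7 and 8 of F1 P6 (6.79% and 6.95%), TBT 5 and 9 of F3 P4 (11.4% and 12.1%), and DMSO 1 and 2 and TBT 5 of F3 P5 (23.5%, 27.9% and 31.1%), the last being the library of 246520 reads. LTR loci within 8 of 10 listed germ cell genes summed to at least 490 CPM in every F1 P4 and P5 library and at most 17.6 CPM in any P6 library, but to as little as 61.2 CPM in F3 P5. Those within 3 of 5 Sertoli cell genes summed to at most 12.6 CPM in P4 and P5 and at least 41.9 CPM in P6, and those within 2 of 4 Leydig cell genes reached 117 CPM in an F1 P4 library. Those within 6 genes of peritubular, vascular and blood cells summed to at most 44.8 CPM in P4 and P5 and at least 163 CPM in P6. Most of that P6 sum came from Acta2, a smooth muscle actin gene (mean 178 CPM in F1 P6 and 183 CPM in F3 P6), and 4 of the other 5 genes also had higher means in P6 than in P5. Of the endothelial genes, Cdh5 had means of 9.24 and 9.11 CPM in P6 and of 0.531 and 1.82 CPM in P5 of F1 and F3, whereas Pecam1 had means of 1.75 and 1.79 CPM in P6 and of 4.49 and 6.02 CPM in P5. P6 is a mixture of somatic cells. The labels do not say that libraries of a group came from separate litters, so p-values measure the spread between these libraries. The tables of F1 and F3, and of germline and P6 cells, were normalized separately, so levels were tested only within a table and are otherwise set side by side.

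Most of the RNA signal named ETn or MusD lay within genes in every population but F3 P5, where the parts in genes and outside were about equal, and many members in introns had values close to those of neighbouring LTR loci. Loci outside genes carried 14% of the summed member CPM in F1 P4, 33.5% in F1 P5 and 21.2% in F1 P6. The corresponding shares in F3 were 30.6%, 50.2% and 17.5%. Of the 117 tested members of F1 P4 that shared an intron with another LTR locus, 44 had the read count of the nearest one in every library, within 0.5 read. The count was 26 of 195 in F1 P5 and 49 of 121 in F1 P6, and 42 of 146, 18 of 191 and 46 of 152 in P4, P5 and P6 of F3, and it was 0 among members outside genes. When the lowest value among the other LTR loci of the same intron was taken from each such member, 2.84% of the in-gene signal was left in F1 P4, 10.8% in F1 P5 and 1.95% in F1 P6, and 11.1%, 31.2% and 3.95% in P4, P5 and P6 of F3. Where a member and its neighbours share the same reads, its value cannot be told apart from the level of the host transcript. Other in-gene members stood above their neighbour, such as RLTRETN_Mm at position 66672741 of chromosome 18 in F3 P5, at 15.7 CPM against 1.54 CPM, a locus chosen after its values were seen. The loci outside genes are therefore also given separately.

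**Figure D1:**
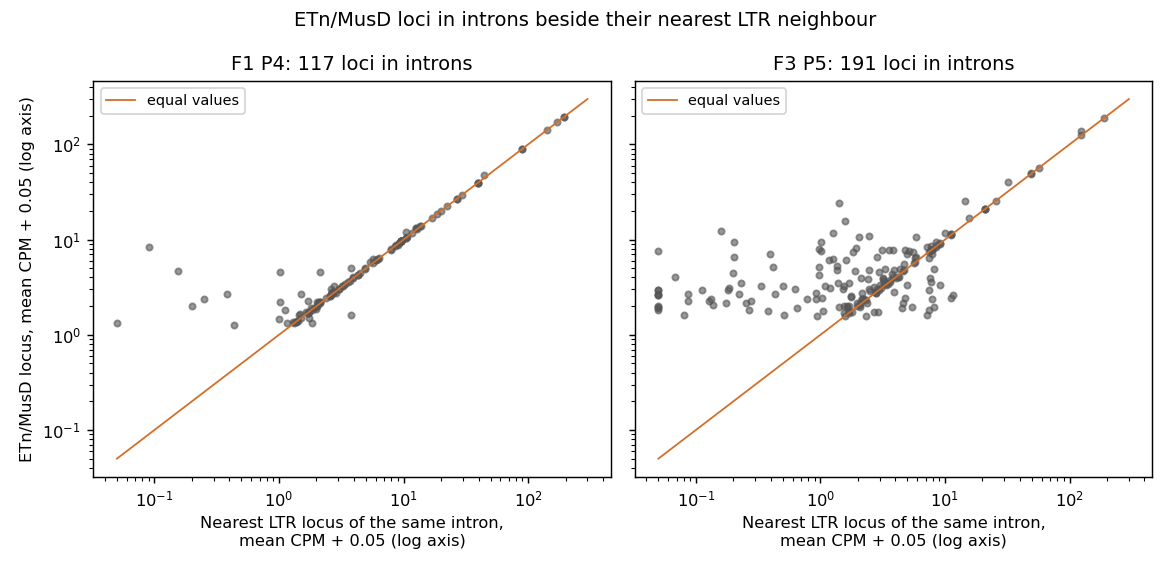
Value of each tested ETn/MusD locus that shares an intron (vertical axis, mean CPM + 0.05 over the libraries of a population, log scale) against the nearest other LTR locus of that intron (horizontal axis, same scale), in F1 P4 (left, 117 loci) and F3 P5 (right, 191 loci). Many points sit on the line of equal values, 44 of 117 with the same reads in every library of F1 P4 and 18 of 191 in F3 P5.

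The highest members show this. In F1 P4 the LTR at chr15:39132085-39132425, annotated as exonic in Dcaf13, ranged from 139 to 250 CPM with a median of 197, and the LTR at chr15:39136390-39136730 had the same range. The mean of the nearest LTR locus was 194 CPM, equal to their own mean of 194 ± 33.0 (SD, n = 12). In F3 P4 the first reached 242 ± 122 CPM (n = 9), with its lowest value of 29.1 CPM, while P6 libraries stayed between 10.5 and 25.1 CPM in F1. An RLTRETN_Mm locus at chr18:36439406-36439728, in an intron of the prefoldin subunit gene Pfdn1, averaged 170 ± 35.4 CPM in F1 P4 and 330 ± 125 CPM in F3 P4, and its neighbour in the intron averaged the same 170 and 330 CPM. The ETnERV2-int fragment at chr18:74794646-74795021, in an intron of Acaa2, which encodes a mitochondrial fatty acid oxidation enzyme, averaged 143 ± 10.6 CPM in F1 P4 and 173 ± 41.1 CPM in F1 P6. An ETnERV2-int fragment at chr6:49413960-49415488 in Stk31, a gene expressed in germ cells, averaged 89.5 ± 16.5 CPM in F1 P4 and 63.7 ± 16.6 CPM in F1 P5 but was at 0 in 11 of 12 F1 P6 libraries. The Cpe LTR, in the gene of the peptide-processing enzyme carboxypeptidase E, had the opposite pattern, with 73.3 to 108 CPM in F1 P6 and 1.02 to 8.87 CPM in F1 P4. In each of these introns the neighbouring LTR loci followed the member.

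Outside genes, RLTRETN_Mm and the internal regions had different levels in the 3 populations. RLTRETN_Mm loci outside genes summed to a median of 157 CPM in F1 P4 (104 to 212), 234 CPM in F1 P5 (166 to 336) and 22.7 CPM in F1 P6 (17.0 to 125). In F3 the medians were 400 CPM in P4 (152 to 2017), 660 CPM in P5 (220 to 1819) and 18 CPM in P6 (15.6 to 23.8). The F1 P6 values of 103 and 125 CPM belonged to TBT 7 and 8, and the other 10 libraries lay between 17.0 and 31.5 CPM. All germline libraries of F3 stood above all P6 libraries, and the F1 ranges did not overlap without TBT 7 and 8 of P6. In bulk RNA, fewer cells of a type and less RNA per cell cannot be told apart.

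The internal regions outside genes had lower medians in P4 than in P5. ETnERV-int summed to medians of 12.7 CPM in F1 P4, 112 CPM in F1 P5 and 63.2 CPM in F1 P6, and to 22.0, 163 and 7.76 CPM in F3. ETnERV2-int gave 42.5, 219 and 108 CPM in F1 and 95.3, 509 and 121 CPM in F3. ETnERV3-int gave 96.4, 258 and 85.8 CPM in F1 and 112, 451 and 137 CPM in F3, so in F1 its P6 median was below that of P4. Per kilobase of annotated locus, RLTRETN_Mm was the most abundant member outside genes in P4 and P5, at 0.512 CPM per kb in F1 P4 and 0.767 in F1 P5, whereas ETnERV3-int was the most abundant in P6, at 0.141 CPM per kb in F1 and 0.226 in F3. ETnERV-int, with the long reading frames, had the lowest such level in P4, P5 and P6 of both generations, at 0.00799 to 0.168 CPM per kb. Single loci made up much of some P6 sums. The ETnERV3-int locus at chr7:106267265 averaged 58.5 CPM in F1 P6 and 94.6 CPM in F3 P6. The ETnERV-int locus at chr4:41871688 averaged 36.9 CPM in F1 P6.

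**Figure D2:**
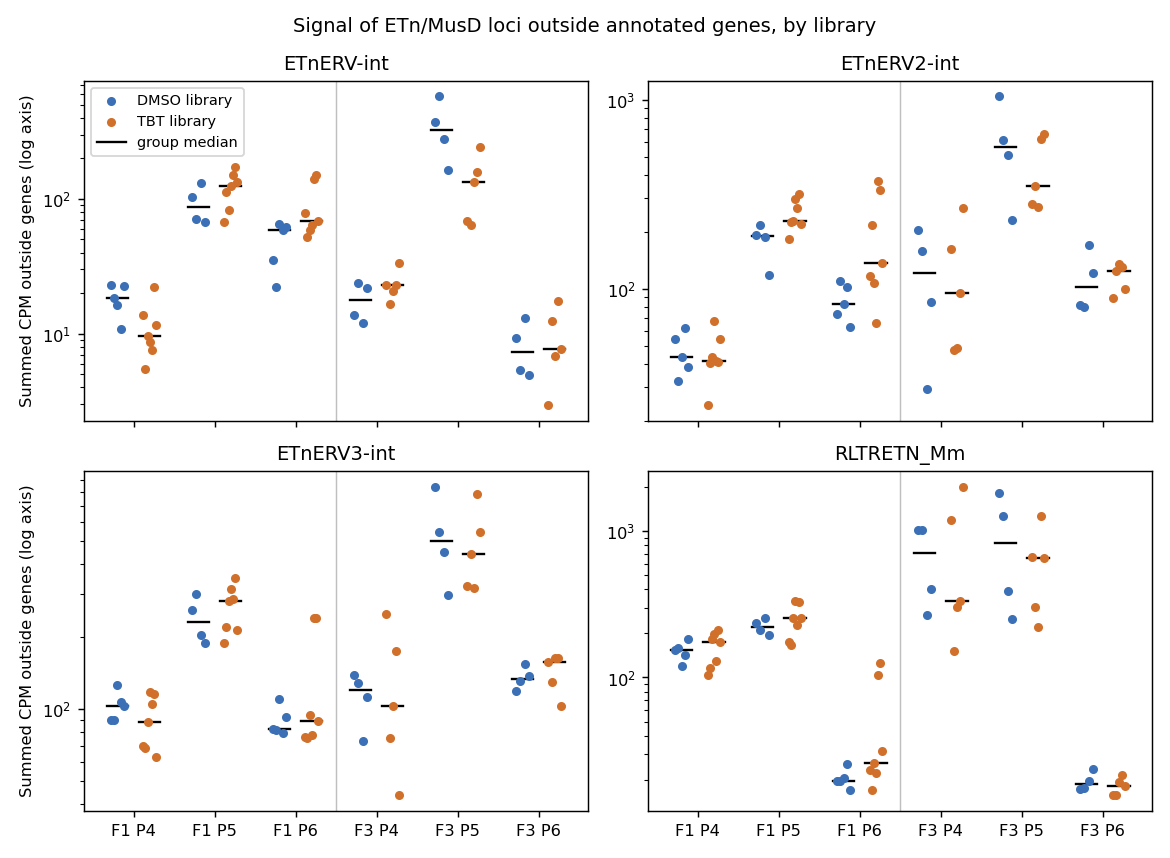
Summed CPM of the members outside genes (log axis) for each RepeatMasker name, by generation and population (horizontal axis), with 1 point for each library (blue DMSO, orange TBT) and a bar at each group's median. RLTRETN_Mm medians are 157, 234 and 22.7 CPM in P4, P5 and P6 of F1, and the P5 medians of the 3 internal regions stand above their P4 medians in both generations.

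A few loci stood out in the somatic signal outside genes. The ETnERV3-int locus at chr7:106267265-106269782, of 2518 bases with a stop-free frame of 569 codons, lies 51939 bases from Gvin1. It ranged from 43.4 to 78.1 CPM in F1 P6 (median 58.9) and from 71.2 to 115 CPM in F3 P6 (median 92.3). In P4 it was above 0 in 2 of 12 F1 and 1 of 9 F3 libraries, and in P5 it did not pass 15.3 CPM, so P6 did not overlap the germline. The nearest LTR locus averaged 8.06 CPM in F1 P6 and 10.3 CPM in F3 P6. A second site lies 10876 bases from Mrgprb5 on chromosome 7. There the ETnERV2-int fragment chr7:48156782-48157107 averaged 45.6 ± 19.6 CPM in F1 P6 (n = 12), with TBT 11 at 103 CPM, and 54.1 ± 13.4 CPM in F3 P6 (n = 9), against at most 2.10 CPM in any germline library. The long ETnERV-int locus chr4:41871688-41877123 (5436 bases, flanked by an ERVB7 LTR) was high in F1 P6, at 14.9 to 51.6 CPM with a median of 43.3, but in F3 P6 it was at 0 in 7 of 9 libraries and at most 0.828 CPM. Both exposures of F1 held high and low libraries for it, since DMSO ranged from 14.9 to 48.3 CPM and TBT from 17.1 to 51.6 CPM. F1 and F3 were not tested against each other.

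In the germline the 3 highest loci outside genes by mean were LTRs in F3 P4 and internal regions in F1 P5, and both kinds were among them in F1 P4 and F3 P5. RLTRETN_Mm at chr6:132455187-132455393 ranged from 4.27 to 12.8 CPM in F1 P4 (median 6.79) and from 3.75 to 13.7 CPM in F1 P5 (median 8.61), and P6 libraries did not exceed 1.31 CPM. In F3 P4 it ranged from 3.65 to 148 CPM, and the high libraries DMSO 1 and 2 and TBT 5 and 9 (61.6, 58.7, 59.6 and 148 CPM) stood above the other 5 (3.65 to 22.4 CPM). In F3 P5 it had the highest mean of any locus outside genes, 42.5 CPM, with a median of 18.8 CPM and a range from 6.74 to 117 CPM over all 9 libraries. RLTRETN_Mm at chr16:86217108-86217445 averaged 9.04 ± 3.89 CPM in F1 P4 and 40.7 ± 34.8 CPM in F3 P4, where the same 4 libraries were again the highest (44.5 to 103 CPM), and it was at 0 in all P6 libraries. The same 4 libraries had the highest shares of reads outside genes in F3 P4. These were 4.74% and 5.10% in DMSO 1 and 2 and 11.4% and 12.1% in TBT 5 and 9, against at most 3.22% in the other 5. The part of that share in these values was not tested. ETnERV3-int at chr5:105364995-105366781 averaged 8.15 ± 3.23 CPM in F1 P4, between these LTRs. In F1 P5 the highest were ETnERV3-int loci at chr13:65715326-65722390 (9.89 ± 3.48 CPM), chr1:7887216-7888326 (9.63 ± 5.21 CPM) and chr2:26703177-26704875 (8.68 ± 7.40 CPM). The internal region ETnERV-int at chr7:62020185-62026570 had a mean of 25.4 CPM in F3 P5 that rested on 1 library, at 178 CPM in DMSO 2 and at most 22.9 CPM in the other 8.

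The comparison of P5 with P4 asked whether the side scatter populations of the germline differ, with exposure in the model. In F1, 250 members were tested by limma on log2(CPM + 1 unit), the unit being the value of 1 read, and 84 were higher and 37 lower in P5 at a false discovery rate (FDR) under 0.05. Over all loci tested, 17.0% were higher and 20.3% lower. The calls outside genes were nearly all in 1 direction. Of 84 members tested there, 50 were higher and 1 was lower, with a median log2 fold change of 1.69. Of all loci outside genes, 42.8% were higher and 3.16% lower, with a median of 0.80. Loci were kept by their mean over the P4 and P5 libraries together, so a locus at 0 in 1 population could enter through the other alone. The same filter within 1 population kept 36 members outside genes in F1 P4 and 195 in F1 P5. In F3 it kept 210 and 335. How far the direction of the calls rests on the filter was not tested. In genes, 34 of 166 members were higher and 36 lower, against 15.8% and 21.1% of all loci in genes. By name, the loci outside genes that were higher in P5 were 4 of 7 ETnERV-int (median log2 fold change 2.48), 16 of 20 ETnERV2-int (2.13), 25 of 39 ETnERV3-int (1.85) and 5 of 18 RLTRETN_Mm (0.36). P5 libraries had more reads outside genes (5.29% against 2.19%). With every library brought to a common total over loci outside genes, 24 members were higher and 11 lower, with a median of 0.40 against -0.37 for all loci, of which 13.6% were higher and 21.3% lower. Of the 24, all were internal regions, whose medians stayed above 0 (1.81 for ETnERV-int, 1.42 for ETnERV2-int and 0.92 for ETnERV3-int). The RLTRETN_Mm median turned to -0.70, with 0 of 23 loci higher and 7 lower. The 50 loci that were higher had a median length of 2510 bases, against 1533 bases for those not called. Of the 50, 9 lay on chromosome 7, against 0 of the 33 not called and 8.19% of all members. In F3 the corresponding counts were 3 of 15 called higher and 23 of 271 not called. The share of this chromosome among all loci called higher is not given here.

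**Figure D3:**
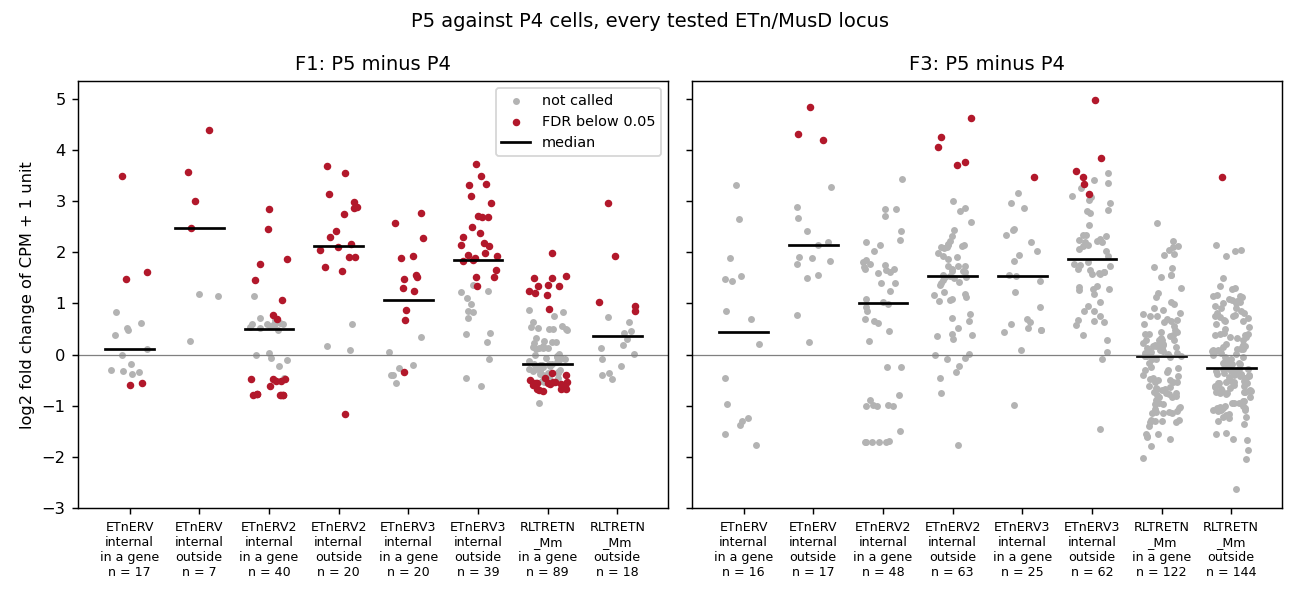
Log2 fold change of P5 over P4 (log2 of CPM + 1 unit) for each tested member, by RepeatMasker name and by place in a gene or outside genes, in F1 (left) and F3 (right), with called loci (limma, FDR under 0.05) in red and bars at the medians. Internal regions outside genes lie mostly above 0, with medians of 2.48, 2.13 and 1.85 in F1, and RLTRETN_Mm outside genes has a median of 0.36 in F1 (-0.70 with a common total outside genes) and -0.27 in F3.

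In F3, 497 members were tested and 16 were higher and 0 lower in P5 (over all loci 0.985% and 0.0112%). Of these 16, 15 lay outside genes, where 286 members were tested and 4.41% of all loci were higher and 0.0% lower. The remaining call was 1 member in a gene, where 0.443% of all loci were higher and 0.013% lower. edgeR's quasi-likelihood test on the recovered reads called 93 members higher and 2 lower (6.47% and 0.0826% over all loci). Without libraries 1, 2, 5 and 9 of both populations, limma called 35 members higher and 0 lower (2.54% and 0.143% over all loci). Some settings lowered the count, to 8 without replicate number 6 or 9, 7 at a mean of at least 20 units, 2 in DMSO libraries only and 0 in TBT libraries only. Others raised it: a pseudocount of 4 units, a common total per library, the replicate number as a block, and leaving out replicate number 5 alone. The F3 medians outside genes were 2.14 for ETnERV-int, 1.54 for ETnERV2-int, 1.87 for ETnERV3-int and -0.27 for RLTRETN_Mm. With a common total outside genes the calls there went in both directions, with 19 of 279 members higher and 5 lower (5.31% and 2.5% of all loci), and the member median turned from 0.75 to -0.25. That of all loci went from 1.01 to -0.03. The 5 lower were all RLTRETN_Mm, whose median was -1.19, whereas those of the internal regions stayed above 0 (1.60 for ETnERV-int, 1.21 for ETnERV2-int and 1.3 for ETnERV3-int). Of the 16 members higher in F3, 13 were also called in F1, which is 81.25% of the F3 list and 15.5% of the F1 list, and the other 3 were not tested in F1. Of the 84 called higher in F1, 74 were tested in F3 and 72 had a positive fold change there (97.3%). Over all loci called higher in F1, 85.2% of those tested in F3 had a positive fold change, and outside genes the shares were 95.7% for members and 93.7% for all loci. Of all loci called higher in F3 and tested in F1, 95.6% were also called in F1.

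The member with the largest increase in F1 P5 was an ETnERV-int region at chr2:86069440-86071765, of 2326 bases, 2227 bases from the olfactory receptor gene Olfr1036 and flanked by the ERVB7 LTR printed above. In F1 P4 it was at 0 in 8 of 12 libraries and at most 0.5 CPM, and in F1 P5 it ranged from 2.33 to 26.0 CPM with a median of 6.68. The F1 groups did not overlap, and the log2 fold change was 4.39 (SE 0.38, limma FDR 3.82e-11). In F3 P4 it was at 0 in 7 of 9 libraries and at most 1.33 CPM, and in F3 P5 8 of 9 libraries ranged from 4.91 to 90.9 CPM while TBT 5 was at 0. The F3 log2 fold change was 4.83 (SE 0.85, limma FDR 0.00299). The nearest other LTR locus averaged 0.0870 CPM in F1 P5.

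Other internal regions had the same pattern. ETnERV2-int at chr13:96147143-96149181, 14566 bases from Sv2c, was at 0 in all 12 F1 P4 libraries and between 0.723 and 10.2 CPM in F1 P5 (limma FDR 3.32e-08), and a fold against 0 depends on the pseudocount. ETnERV3-int at chr1:147166926-147170877 was at 0 in 9 of 12 F1 P4 libraries, with DMSO 48-4 at 4.12 CPM, and ranged from 0 to 14.5 CPM in F1 P5 (log2 fold change 3.73, SE 0.55, limma FDR 2.29e-06). ETnERV3-int at chr1:99556835-99560813 ranged from 0 to 1.35 CPM in F3 P4 and from 0 to 117 CPM in F3 P5, with a log2 fold change of 4.97 (SE 0.90, limma FDR 0.00391). ETnERV2-int at chr7:13899001-13900130 was at most 2.33 CPM in F3 P4 and 1.91 to 43.7 CPM in F3 P5, with a log2 fold change of 4.62 (SE 0.84, limma FDR 0.00391). The only member outside genes that was lower in F1 P5 was ETnERV2-int at chr6:132141639-132142410, with medians of 1.22 CPM in P4 and 0.689 CPM in P5. Its log2 fold change was -1.16 (SE 0.43, limma FDR 0.0300), and edgeR's quasi-likelihood test did not call it (FDR 0.0585). Among members in genes, 2 ETnERV2-int fragments in an intron of Cdc42ep5 at chr7:4156308-4156814 and chr7:4155451-4155689 were lower in P5, by log2 fold changes of -0.80 and -0.78 (limma FDR 0.000546 and 0.000674), with their neighbours in the intron at like values.

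**Figure D4:**
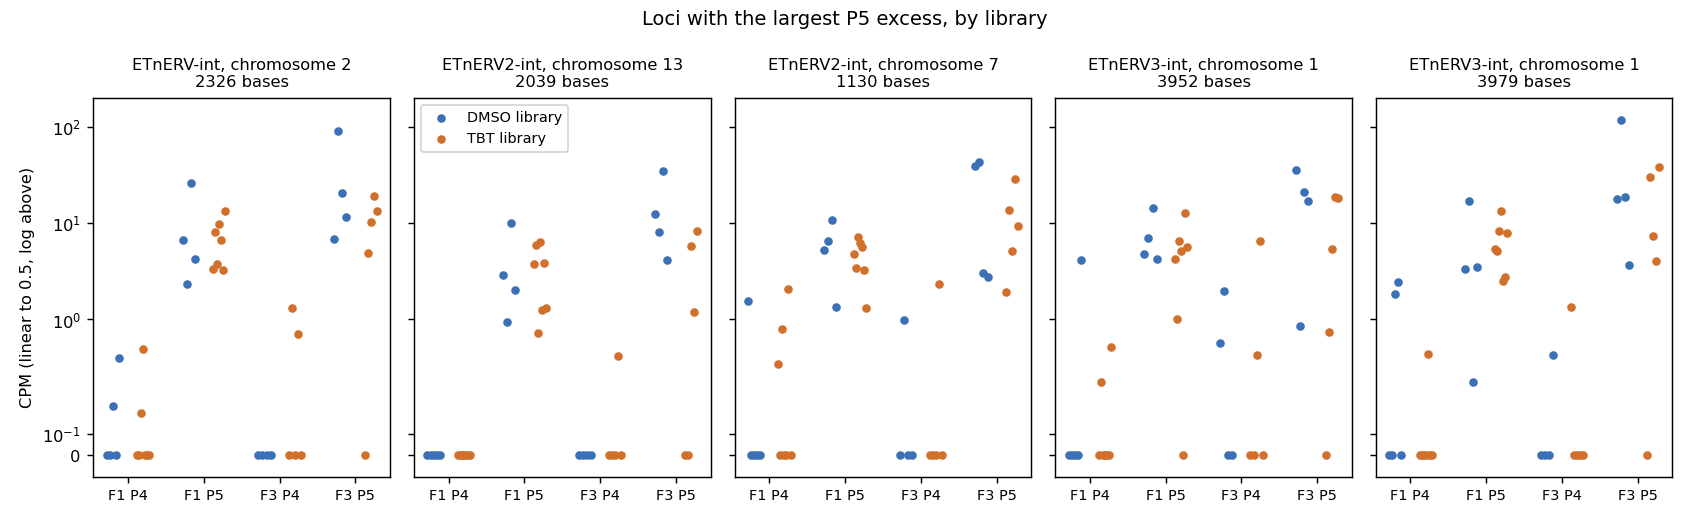
CPM in each library (vertical axis, linear up to 0.5 and logarithmic above) of the 5 loci with the largest called increases in P5 over P4, by generation and population, 1 panel a locus, with DMSO libraries in blue and TBT libraries in orange. The P4 points of the ETnERV-int locus near Olfr1036 lie at 0 or at most 1.33 CPM, and its P5 points lie between 2.33 and 90.9 CPM apart from TBT 5 of F3 at 0.

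Summed over all loci of a name, including those in genes, ETnERV-int was higher in F1 P5 than in P4 by a log2 fold change of 1.10 (SE 0.09, limma FDR 2.52e-10) and ETnERV3-int by 1.03 (SE 0.09, limma FDR 3.58e-09). The ETnERV2-int total was higher by 0.14 (limma FDR 0.0142), a call lost without replicate number 43-5 (0.12, limma FDR 0.0718), and the RLTRETN_Mm total did not pass the test (-0.16, limma FDR 0.0577). That last total passed when 1 replicate number was left out in 4 of 12 cases, and with only loci outside genes its sign turned, to 0.60. Of the 664 names tested, 63.9% were called in either direction. In F3 the totals of ETnERV-int (1.76, SE 0.32, limma FDR 0.00153) and ETnERV3-int (1.70, SE 0.27, limma FDR 0.000464) were higher in P5, and 2.72% of 662 names were called. The totals of ETnERV2-int (0.55, limma FDR 0.539) and RLTRETN_Mm (-0.34, limma FDR 0.702) did not pass in F3. Over loci outside genes only and with a common total there, where 47% of names in F1 and 23.2% in F3 were called, the ETnERV3-int total was no longer called in F1 (0.22, limma FDR 0.0795). The RLTRETN_Mm total was then lower in P5 in both generations (-0.56, limma FDR 1.29e-06, and -1.08, limma FDR 0.00371), and ETnERV2-int was higher in F3 too (1.04, limma FDR 0.000566). MMETn-int, the internal region of ETn, had an F1 log2 fold change of 1.06 (limma FDR 1.55e-09).

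The comparison of TBT with DMSO asked whether exposure of the F0 dams left a difference in these elements in F1 and F3. Of the members tested, 166 in F1 P4, 413 in F1 P5, 148 in F1 P6, and 383, 560 and 183 in P4, P5 and P6 of F3, 1 was called by limma, in F1 P5. At an unadjusted p under 0.05 there were 9 higher and 7 lower in F1 P4 (4.37% and 2.72% of all loci), 60 and 16 in F1 P5 (4.64% and 2.25%), and 2 and 0 in F1 P6 (1.45% and 2.24%). In F3 there were 2 and 4 in P4 (0.311% and 1.34%), 7 and 8 in P5 (0.492% and 0.519%), and 10 and 8 in P6 (4.85% and 3.11%). Outside genes the counts at that level were 3 higher and 2 lower of 36 members in F1 P4 (6.02% and 5.04% of all loci there), 37 and 6 of 195 in F1 P5 (15.7% and 2.57%), and 0 and 0 of 17 in F1 P6 (6.65% and 5.14%). In F3 they were 1 and 1 of 210 in P4 (1.42% and 2.45%), 6 and 7 of 335 in P5 (1.29% and 1.93%), and 2 and 1 of 19 in P6 (9.82% and 5.7%). With a common total outside genes they were 17 and 6 of 192 in F1 P5 (7.14% and 2.96%) and 0 and 3 of 18 in F1 P6 (0.295% and 12.1%). In F1 P5 0.0106% of all loci were higher and 0.0% lower. Over all loci 0.00341% were higher and 0.0% lower in F1 P6 and 0.02% higher and 0.0143% lower in F3 P6, while the share was 0.0% in P4 of both generations and in P5 of F3. edgeR's quasi-likelihood test on the recovered reads called 0 members in F1 P5 (0.00327% of all loci higher, 0.0% lower) and 1 in F3 P6 (0.0277% higher, 0.0305% lower). edgeR's likelihood ratio test, which takes the estimated spread as known, called 7 members higher and 0 lower in F1 P5 (0.253% and 0.0662% over all loci) and 12 higher and 21 lower in F3 P5 (0.66% and 2.47%). The median log2 fold change of the members was 0.05 in F1 P4 (0.04 for all loci), 0.17 in F1 P5 (0.03) and -0.06 in F1 P6 (-0.04). In F3 it was -0.15 in P4 (-0.69 for all loci), -0.19 in P5 (0.15) and -0.02 in P6 (0.02). Outside genes the median was -0.06 for members and 0.04 for all loci in F1 P4, 0.40 and 0.37 in F1 P5, and 0.24 and -0.06 in F1 P6. In F3 it was 0.04 and 0.02 in P4, -0.35 and -0.52 in P5, and 0.09 and 0.10 in P6. With a common total outside genes the member median turned to -0.53 in F1 P6 (-0.80 for all loci) and to 0.09 in F3 P5 (0.01), and went to 0.15 in F1 P5 (0.12). In P4 of both generations and in F3 P6 it kept its sign. The difference of the TBT effect between P5 and P4 was not called for any member by limma, and over all loci 0.000986% were higher in F1 and 0.0% in F3.

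The called locus was ETnERV2-int at chr18:6381093-6382781, of 1689 bases and 53170 bases from Epc1. In F1 P5 the DMSO libraries were at 0, 0, 0 and 1.01 CPM, and the TBT libraries were at 4.45, 2.04, 1.08, 3.18, 4.59, 4.67 and 4.13 CPM. All TBT libraries stood above all DMSO libraries, by 3.52 on the log2(CPM + 1 unit) scale (SE 0.57, limma FDR 0.0359), with 0.0996% of all loci outside genes higher. The call was lost without any one of 9 of the 11 libraries (limma FDR 0.0532 to 0.150) and was kept without DMSO 48-4 or TBT 45-5. It was also lost in edgeR's quasi-likelihood test (FDR 0.180) and with a common total outside genes (limma FDR 0.0902, with 0.02% of all loci higher). In F1 P4 the locus was at 0 in all libraries but DMSO 44-3 (0.49 CPM) and TBT 47-1 (7.75 CPM). In F3 P5 the DMSO libraries were at 0.492, 0, 0.277 and 0 CPM and the TBT libraries at 1.91, 14.7, 4.98, 4.81 and 0 CPM, a difference of 2.78 (SE 1.34, limma FDR 1.00). The first numbers in the names of the F1 germline libraries (43, 44 and 48 in DMSO, 45 and 47 in TBT) are not explained by the labels, and what they stand for cannot be told apart from exposure.

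**Figure D5:**
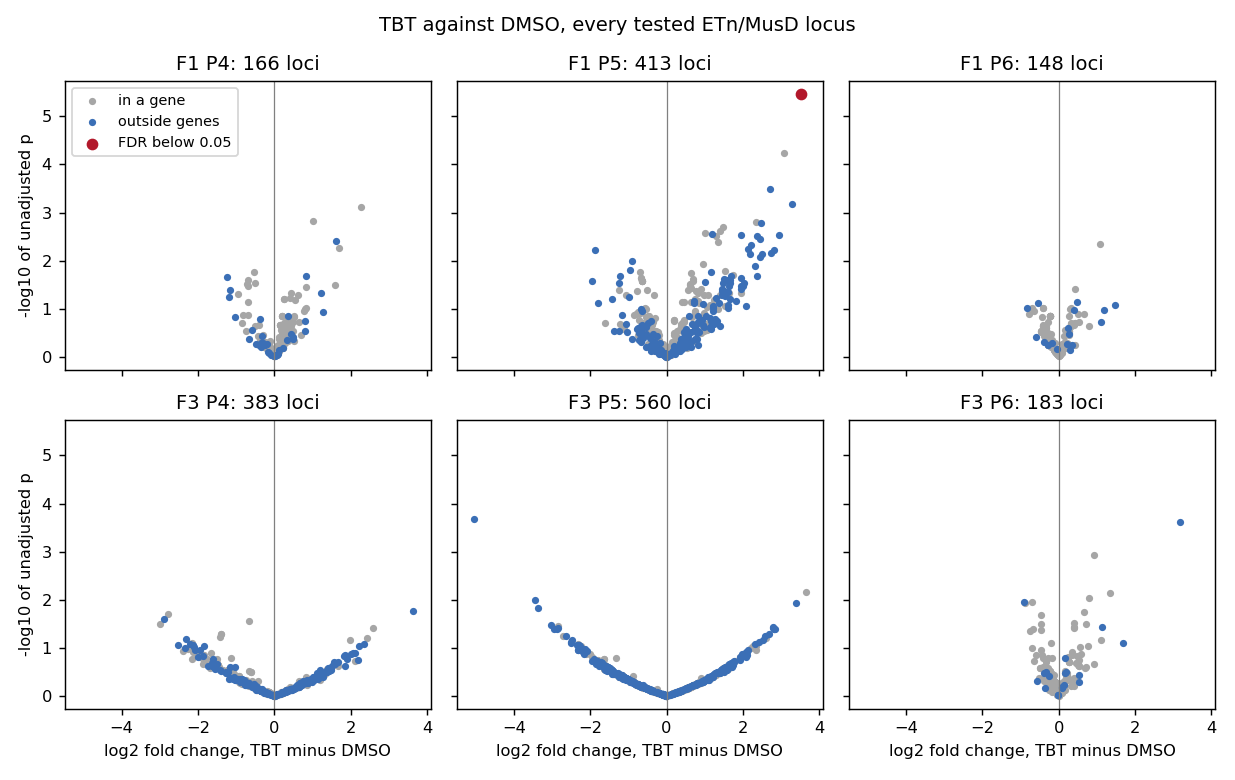
Difference of TBT from DMSO (horizontal axis, log2 of CPM + 1 unit) against the unadjusted limma p (vertical axis, -log10) for every tested member, 1 panel for each population of F1 (top) and F3 (bottom), with loci in genes in grey and loci outside genes in blue. The only red point, an FDR under 0.05, is the ETnERV2-int locus near Epc1 in F1 P5 at 3.52.

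The members with the smallest p in F3 P5 and F1 P6 did not pass the adjustment. In F3 P5 an ETnERV2-int fragment at chr7:48160781-48161170, 6813 bases from Mrgprb5, was at 13.8, 62.2, 19.9 and 1.85 CPM in DMSO and at 0, 0, 0, 0 and 1.47 CPM in TBT. These groups did not overlap, but the difference of -5.06 (SE 1.13) had a limma FDR of 1.00. Among members that were higher, the smallest p in F3 P5 belonged to an ETnERV3-int locus at chr5:15536802-15538582, annotated as exonic in Gm30613. It was at 0, 0, 0.277 and 0.462 CPM in DMSO and at 95.7, 0.491, 2.89, 8.01 and 2.34 CPM in TBT (limma FDR 1.00), the highest value being that of TBT 5, the library of 246520 reads. The fragment near Mrgprb5 that was high in P6, chr7:48156782-48157107, was at 0 to 1.39 CPM in the same F3 P5 libraries. In F1 P6 an ETnERV2-int locus in an intron of Pkia, chr3:7395442-7398545, was at 0.780 to 1.5 CPM in DMSO and 1.90 to 4.93 CPM in TBT, with no overlap (1.09, SE 0.35, limma FDR 0.999). Its value equalled that of the nearest LTR locus of the intron in 8 of the 12 libraries, and that neighbour was at 0.780 to 1.15 CPM in DMSO and 1.64 to 2.56 CPM in TBT. The highest values of the Pkia locus were those of TBT 7 and 8, the libraries with 6.79% and 6.95% of reads outside genes, and the part of that share was not tested. Among members that were lower, the smallest p in F1 P6 belonged to ETnERV3-int at chr17:3063215-3067012, at 4.34 to 10.4 CPM in DMSO and 2.31 to 9.5 CPM in TBT (-0.54, SE 0.29, limma FDR 0.999).

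The summed levels of the 4 names differed between TBT and DMSO by less than the test could call in every population. Over all names, 0.0% were called in each population. The RLTRETN_Mm total in F1 P6 had a log2 fold change of 0.12 (limma FDR 0.726). The ETnERV-int total in F3 P5 had the largest difference, -1.12 (SE 0.55, limma FDR 0.997), and P5 of F3 also had the widest range of library sizes.

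Methylated DNA, captured by a methyl-CpG binding domain (MBD) protein from P6 cells and counted in 100-base windows, was examined in the members. In F1, 206 of 154773 windows lay on 159 member loci and 78 of these windows had counts enough to be tested, and in F3 235 of 164382 windows lay on 183 loci and 112 were tested. edgeR's quasi-likelihood test called 0 member windows in F1, with 2 higher and 2 lower at an unadjusted p under 0.05 (5.13% of those tested, against 5.05% of all windows), and 0 in F3, with 0 in each direction (5.16% of all windows). Over all windows, 0.00579% were higher and 0.026% lower in F1 and 0.0% in both directions in F3. DESeq2 also called 0 member windows in each generation. The members took 0.185% ± 0.00506 (SD, n = 3) of the counts in F1 DMSO and 0.187% ± 0.00778 (n = 4) in F1 TBT, and 0.225% ± 0.0117 (n = 5) and 0.226% ± 0.0202 (n = 7) in F3, so the groups differed by less than their spread.

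Captured signal was highest in ETnERV-int and RLTRETN_Mm, whose windows held the most CpG, with means of 1.82 and 2.11 per window in F1 and 2.09 and 1.76 in F3. Between these names, and between the other two, the one with more CpG per window had the lower mean in both generations. The mean per window was 10.7 CPM in ETnERV-int, 7.12 in ETnERV2-int, 9.54 in ETnERV3-int and 10.5 in RLTRETN_Mm in F1, and 13.3, 6.34, 7.28 and 13.4 CPM in F3. Member windows without CpG had a median of 4.48 CPM in F1, those with 1 or 2 had 8.83 CPM, those with 3 to 5 had 12.5 CPM and the 3 windows with 6 or more had 35.5 CPM. Over all windows of the same classes the medians were 3.41, 7.02, 13.6 and 4.55 CPM. In F3 the member medians were 2.62, 8.65, 18 and 22.1 CPM (6 windows in the last class), against 2.19, 6.24, 15.2 and 5.01 CPM over all windows. The member windows with the smallest p were an ETnERV2-int window starting at position 49413501 of chromosome 6, in Stk31 (log2 fold change -0.90, edgeR FDR 0.938), and an ETnERV2-int window starting at 18947001 of chromosome 18 (0.78, edgeR FDR 0.976) in F1. In F3 they were an ETnERV-int window at 4391901 of chromosome 3 (0.33) and an RLTRETN_Mm window at 59438901 of chromosome 3 (-0.46), both at an edgeR FDR of 0.958. Only windows that the authors deposited were seen, so most member loci, 4592 in all, have no methylation value here.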

How the data were processed

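RNA of sorted cells from E18.5 testes was measured in 62 libraries and methylated DNA in 19. Per the paper's methods and the labels, the authors made oligo(dT)-primed cDNA, aligned paired reads with STAR to GRCm38/mm10 after Trim Galore, counted RepeatMasker LTR loci with a modified ERVmap and scaled them in edgeR. The deposited RNA values are signal on a CPM scale with the TMM factors of each table. All values were whole multiples of 1 read per library, within 0.01 read. How reads that match several loci were treated, and whether counting used strand, is not given in the sources used here, and young ETn copies share sequence, so single loci are uncertain. The deposited MBD counts are raw counts in 100-base windows. The second MBD column, the number of CpG in a window, served only to class windows. Loci were placed with the GENCODE gene annotation of GRCm38/mm10. limma 3.58.1 (trend) was fitted per table on log2(CPM + 1 unit), 1 unit being the median value of 1 read (0.181 to 0.294 CPM), for loci averaging 5 units or more, and p-values were adjusted (Benjamini-Hochberg) over all loci tested. Totals of each name were fitted alike. Recovered reads and MBD counts were tested with edgeR 4.0.16 (quasi-likelihood) and DESeq2 1.42.0. The statistics were tested on simulated data. Loci named are the 5 highest means and the 3 highest outside genes of each population, the 3 largest called changes each way between P5 and P4 and, for TBT, the called loci or the smallest p each way. A few loci that this rule named are not reported here. The members, lists and tests were chosen with earlier results of these data known. Tables were prepared with Python 3.11.15 and R 4.3.3. Intervals for counting error were not computed.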

Additional observations from a re-analysis of the deposited data

Results flagged for a closer look

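Dixon's test for a library far from the rest of its group was run on 193 groups of member values and marked 18 (9.33%), where chance marks about 1 in 20. Of these, 8 were in F3 P4 and 5 in F3 P5. Of the summed levels in F3 P4, DMSO 3 was lowest for ETnERV-int (77.96 CPM, next 101.7), ETnERV2-int (474.4, next 793.0) and ETnERV3-int (145.6, next 223.0), and TBT 5 was lowest for ETnERV2-int (360.3, next 605.4). In F3 P6, DMSO 3 was highest for RLTRETN_Mm (675.9 CPM, next 656.9). F3 P5 TBT 5, the library of 246520 reads, was at 0 CPM at both Dcaf13 LTRs, chr15:39132085 (next 120.4) and chr15:39136390 (next 117.2), at the Acaa2 fragment chr18:74794646 (next 61.69) and at the Stk31 fragment chr6:49413960 (next 33.25).

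At single loci, 1 library stood above a group otherwise at 0 CPM: DMSO 48-4 at chr18:6381093 in F1 P5 (1.009) and at chr1:147166926 in F1 P4 (4.117), DMSO 2 (0.9778) and TBT 8 (2.329) at chr7:13899001 in F3 P4, DMSO 4 (0.4673) and TBT 5 (1.354) at chr1:99556835 in F3 P4, and TBT 9 at chr7:48160781 in F3 P5 (1.465). The remaining marks were TBT 11 of F1 P6 at chr7:48156782 (102.5 CPM, next 48) and DMSO 43-4 of F1 P5 at chr7:4155451 (5.979 CPM, next 6.769).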

How the results depend on the processing

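Of the counts of called members and totals, 123 of 145 values under other settings stayed within 1.5 times the reported count. Counts of 0 that stayed at 0 are included, and most of these results had a reported count of 0. For the TBT effect in P5 minus that in P4 and for MBD windows, 0 members were called under each setting run. For TBT in F1 P5 (1 called), the count was 0 with edgeR's quasi-likelihood test, a pseudocount of 0.25 unit, a mean of at least 20 units or a common total outside genes, 7 with the likelihood ratio test, 17 without a filter, and 0 to 2 when 1 library was left out. For TBT in F3 P5 (0 called) the likelihood ratio test gave 33 (12 higher, 21 lower), and for F3 P6 (0) both edgeR tests gave 1. For P5 against P4 in F1 (121 called), the count was 232 without a filter, 45 at a mean of at least 20 units, 48 in DMSO libraries only and 35 with a common total outside genes. A common total over all loci kept 121 but moved the split from 84 higher and 37 lower to 94 and 27. For F3 (16 called), it was 95 with edgeR's quasi-likelihood test (93 higher), 26 with a pseudocount of 4 units, 7 at a mean of at least 20 units, 27 with a common total, 2 in DMSO libraries only, 0 in TBT libraries only and 35 without replicates 1, 2, 5 and 9. Leaving out 1 replicate number gave 8 to 35 in F3: 35 without 5, 8 without 6 or 9, 9 without 1, 3 or 8 and 10 without 7. The F3 totals called (2) became 4 with a common total outside genes. With the replicate number as a block, 133 members were called in F1 and 37 in F3. The labels do not say whether equal numbers pair the libraries, and correlations of deviations do not settle it, since low values do not exclude pairing. They ran from -0.0055 to 0.278 in F1 and from -0.0878 to 0.460 in F3. A library was closest to its own number in 5 of 11 and 4 of 9 cases. The main test left the number out, so a pairing, if real, was not used.

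Totals of a name for TBT against DMSO were called nowhere, and their sign turned under some settings, in log2 units. With only loci outside genes: F1 P4 ETnERV2-int -0.066; F3 P4 ETnERV-int 0.40, ETnERV2-int 0.063 and ETnERV3-int -0.028; F3 P6 ETnERV-int 0.091 and ETnERV2-int 0.081. With a common total outside genes: F1 P4 ETnERV2-int -0.013, F1 P5 ETnERV3-int -0.13 and RLTRETN_Mm -0.17, F1 P6 ETnERV3-int -0.46, F3 P4 ETnERV-int 0.45 and ETnERV2-int 0.12, F3 P5 ETnERV2-int 0.077, ETnERV3-int 0.32 and RLTRETN_Mm 0.038, and F3 P6 ETnERV-int 0.059 and ETnERV2-int 0.05. With a common total per library: F3 P4 ETnERV-int 0.13, ETnERV2-int 0.15 and RLTRETN_Mm 0.16, and F3 P6 ETnERV-int 0.003. With edgeR's quasi-likelihood test: F3 P4 ETnERV-int 0.11, ETnERV2-int 0.12 and RLTRETN_Mm 0.32, F3 P5 ETnERV3-int 0.10, and F3 P6 ETnERV-int 0.00. Without the libraries that stood apart: F1 P6 ETnERV3-int -0.12, F3 P4 ETnERV-int 0.07, and F3 P5 ETnERV2-int 0.23, ETnERV3-int 0.35 and RLTRETN_Mm 0.34. With 1 library left out, the ranges that crossed 0 were -0.001 to 0.203 for F1 P5 ETnERV3-int, -0.069 to 0.311 for F3 P4 ETnERV3-int, -0.352 to 0.113 for F3 P5 ETnERV3-int, and for F3 P6 -0.043 to 0.057 (ETnERV-int), -0.099 to 0.056 (ETnERV2-int) and -0.005 to 0.112 (ETnERV3-int). For P5 over P4, the RLTRETN_Mm total turned to 0.60 in F1 and 0.13 in F3 with only loci outside genes. The settings that leave out the libraries that stood apart, or scale loci outside genes to a common total, were chosen after seeing the data. The causes were not tested. In F3 P5 the library of 246520 reads limits what can be seen at single loci.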
